A study of Mus musculus with 6 samples.

Results

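The genes described here are 8 that make nitric oxide from arginine, recycle arginine or make and control polyamines, namely Nos2, Ass1, Asl, Odc1, Srm, Sms, Sat1 and Oaz1. They were taken by symbol from the 49315 genes of the count table, and all 8 were found. RNA was sequenced from RAW264.7, an established mouse macrophage-like line labelled as wild type, after 24 h in SKI-II at 4 μg/mL or in the solvent DMSO in a matching amount. SKI-II blocks sphingosine kinases, the enzymes that make sphingosine 1-phosphate. Each condition had 3 libraries of poly(A)-enriched RNA. The study's methods say that cells were treated and RNA extracted as for its qPCR assay, which used biological replicates. The labels do not tie each library to a culture, so p-values measure the spread between these libraries.

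Macrophages use arginine in competing ways. The inducible nitric oxide synthase, encoded by Nos2, turns it into nitric oxide and citrulline, and Ass1 and Asl rebuild arginine from citrulline. Arginine also yields ornithine, from which ornithine decarboxylase, encoded by Odc1, makes putrescine, which Srm turns into spermidine and Sms into spermine. Sat1 encodes the acetyltransferase that marks spermidine and spermine for export or oxidation, and Oaz1 encodes antizyme, which binds ornithine decarboxylase and sends it to the proteasome. High Nos2 is a usual mark of macrophages activated by bacterial products.

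The libraries held between 12495957 and 20050677 counts, and values below are normalized counts, that is counts scaled to a common library size. All 10 macrophage markers were tested, and their summed level ran from 145090 to 210809 normalized counts across the DMSO libraries and from 93568 to 132621 across the SKI-II libraries. Lyz2 carried this difference. Without it, a choice made after seeing the values, the other 9 markers summed to 54551 to 60189 in DMSO and to a higher 66241 to 71343 in SKI-II. Fcgr1 and Cd14 rose, while Itgam, Adgre1 and Lyz2 fell. The part of these marker changes in the results below was not tested. The 13 markers of other cell types summed to 13.6 to 16.8 normalized counts across DMSO and 17.2 to 28.0 across SKI-II, none was tested, and Cd3g, Ms4a1, Ncr1, Epcam and Krt18 had no counts at all. In bulk RNA, fewer cells that express a gene and less of its RNA per cell cannot be told apart.

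All 8 genes had enough reads for edgeR's quasi-likelihood test. With SKI-II, Asl rose and Sms and Oaz1 fell at an adjusted p below 0.05, while Nos2, Ass1, Odc1, Srm and Sat1 were not called. These 3 calls among 8 tested genes are 37.5%, against 38.0% of all 12274 tested genes, so the share lay close to the background. In the same fit 18.4% of all genes were higher and 19.7% lower. The groups did not overlap for the same 3 genes, whereas they did not overlap for 50.3% of all tested genes. The median log2 fold change was -0.08 over the 8 genes and 0.00377 over all genes tested. Sms also passed a log2 fold change of -1, which 7.44% of all genes did, and 0 members passed 1, which 8.28% of all genes did.

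**Figure D1:**
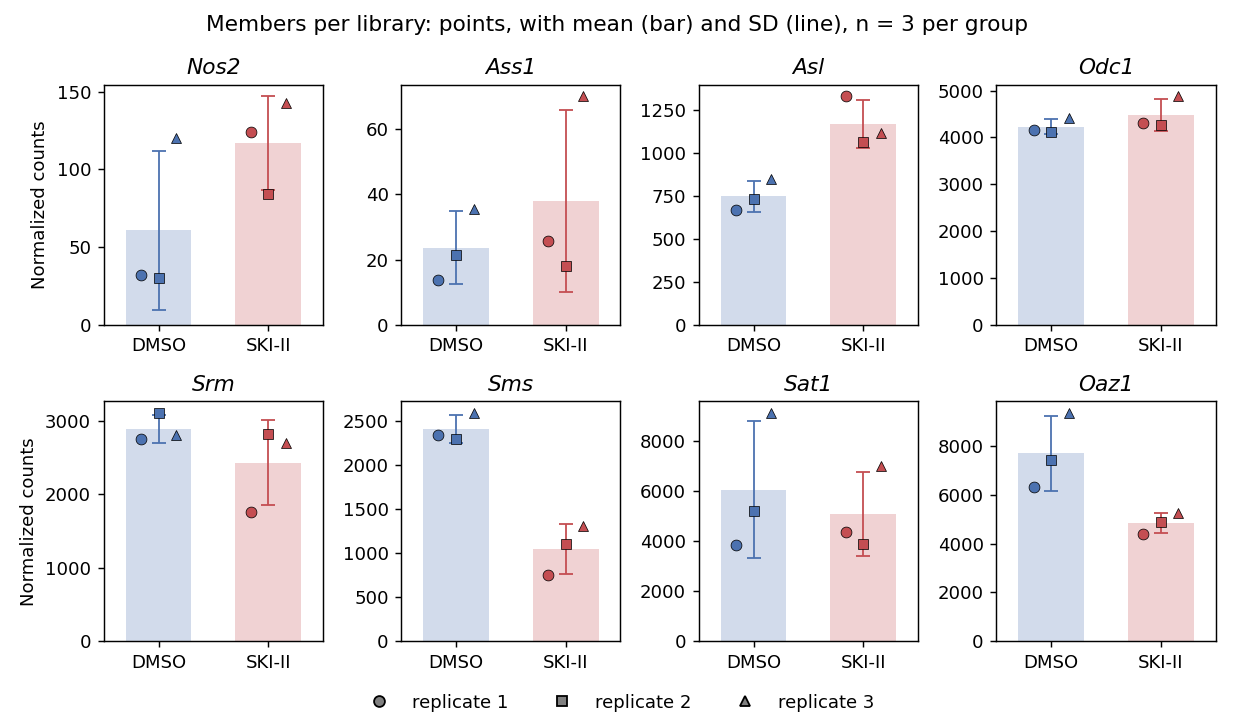
Normalized counts (y axis, linear, a separate scale for each gene) of the 8 genes in the DMSO and SKI-II libraries. Points are libraries, with marker shapes for replicates 1 to 3, bars are means and lines are SD (n = 3). Asl lies higher and Sms and Oaz1 lie lower in every SKI-II library, and DMSO replicate 3 lies with the SKI-II libraries for Nos2.

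Nos2 (chromosome 11, 78920787 to 78960254, plus strand; GENCODE M21 on GRCm38, as for all positions) was weakly expressed. The counts were 33, 24 and 121 in DMSO replicates 1, 2 and 3 and 111, 88 and 175 in SKI-II, which correspond to 32.1, 30.3 and 120 normalized counts for DMSO and to 124, 84.0 and 143 for SKI-II. DMSO replicate 3 was about as high as SKI-II replicate 1 and above SKI-II replicate 2, so the groups overlapped. The log2 fold change was 0.93 (95% interval -0.15 to 2.02, adjusted p = 0.159, edgeR), an interval that includes 0 and reaches past 2. The call and the size of the change moved with DMSO replicate 3. Without that library the log2 fold change was 1.90 and the gene was called higher (adjusted p = 0.00186, edgeR), whereas without DMSO replicate 1 or DMSO replicate 2 it was 0.61 and 0.62. With no filter on low counts the fold change was the same to 2 decimals but the gene was called (adjusted p = 0.00631, edgeR). Nos2 was also called without both libraries numbered 3, a setting added after seeing the data. With a replicate block it was called too (log2 fold change 1.14, adjusted p = 0.0240, edgeR), though the numbers were not taken to pair the samples. Over all alternatives the adjusted p ran from 0.00186 to 0.398.

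DMSO replicate 3 also stood somewhat apart in general, with 6.04% of tested genes more than 1 log2 unit from the mean of the other DMSO libraries, against 4.96% for DMSO replicate 1 and 2.52% for DMSO replicate 2. The same share was 2.00% to 3.89% for the SKI-II libraries, highest in SKI-II replicate 3. In normalized counts Nos2, Ass1, Odc1, Sms, Sat1 and Oaz1 were each highest in the library numbered 3 within both groups, and Asl and Srm were not.

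The enzymes that recycle citrulline to arginine differed in level and in result. Asl (chromosome 5, 130011258 to 130029247, minus strand), which encodes argininosuccinate lyase, had 665, 731 and 845 normalized counts in DMSO against 1328, 1061 and 1112 with SKI-II. All SKI-II values were higher, and the gene rose 1.56-fold, a log2 fold change of 0.64 (95% interval 0.33 to 0.96, adjusted p = 0.00604, edgeR). Ass1 (chromosome 2, 31470207 to 31520672, plus strand), which encodes argininosuccinate synthase, was counted 14, 17 and 36 times in DMSO and 23, 19 and 86 times in SKI-II. Only SKI-II replicate 3 stood above the DMSO range. The log2 fold change of Ass1 was 0.70 (95% interval -0.53 to 1.93, adjusted p = 0.344, edgeR), and it turned to -0.11 without SKI-II replicate 3.

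The first enzymes of polyamine synthesis were abundant and were not called. Odc1 (chromosome 12, 17544794 to 17551505, plus strand) had 4166, 4110 and 4417 normalized counts in DMSO against 4316, 4258 and 4878 with SKI-II. The groups overlapped, and the log2 fold change of 0.08 had a 95% interval of -0.18 to 0.35 (adjusted p = 0.607, edgeR), which leaves out a change of 1 log2 unit in either direction. Srm (chromosome 4, 148591503 to 148594993, plus strand) had 2750, 3108 and 2811 normalized counts in DMSO against 1764, 2817 and 2704 with SKI-II. SKI-II replicate 1 was low and the other SKI-II libraries lay near the DMSO range, with a log2 fold change of -0.25 (95% interval -0.63 to 0.13, adjusted p = 0.283, edgeR). Without SKI-II replicate 1 the value was -0.07.

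Spermine synthase and antizyme fell. Sms (chromosome X, 157443855 to 157492287, minus strand) had 2339, 2299 and 2591 normalized counts in DMSO against 747, 1100 and 1307 with SKI-II. The SKI-II libraries all lay below the DMSO libraries, and the gene was 2.29-fold lower, a log2 fold change of -1.19 (95% interval -1.60 to -0.78, adjusted p = 0.000913, edgeR), with values of -1.38 to -1.01 when a library was left out. Oaz1 (chromosome 10, 80826656 to 80829290, plus strand) had 6311, 7434 and 9365 normalized counts in DMSO against 4414, 4898 and 5254 with SKI-II. Again no SKI-II library reached the lowest DMSO library. The gene was 1.59-fold lower, a log2 fold change of -0.67 (95% interval -1.02 to -0.31, adjusted p = 0.00935, edgeR). The pseudogenes Sms-ps and Oaz1-ps held 1.17% and 1.10% as many counts as their parent genes, and reads may have been split with such copies. Antizyme synthesis is known to depend on ribosomal frameshifting that polyamines promote, which counts of mRNA do not measure.

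Sms and Oaz1 are the 2 of these 8 genes that fell, and the 250 bases before their transcription starts are shown to let their promoters be compared (RefSeq, GRCm38.p6, 5′ to 3′ on the gene's strand). Windows were found for 5 of the 8 genes. Capitals mark matches on either strand to the E-box CACGTG, the antioxidant response element core TGACNNNGC, the CCAAT box CCAAT and the GC box GGGCGG. The Sms window is chrX:157492288-157492537 (minus strand), and the Oaz1 window is chr10:80826406-80826655 (plus strand).
Sms: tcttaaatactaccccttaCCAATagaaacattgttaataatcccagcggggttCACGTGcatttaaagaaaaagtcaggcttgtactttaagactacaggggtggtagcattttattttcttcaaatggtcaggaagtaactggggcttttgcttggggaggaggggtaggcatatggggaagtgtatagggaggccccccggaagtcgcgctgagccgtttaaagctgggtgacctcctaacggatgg
Oaz1: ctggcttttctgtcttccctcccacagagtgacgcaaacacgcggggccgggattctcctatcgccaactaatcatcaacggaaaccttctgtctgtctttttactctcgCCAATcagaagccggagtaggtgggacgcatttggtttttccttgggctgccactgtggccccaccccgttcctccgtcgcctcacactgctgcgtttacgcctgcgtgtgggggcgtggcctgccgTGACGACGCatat

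Both windows held 1 CCAAT box, a match found in 33.8% of all 32851 windows of this length. Sms also held 1 E-box, against 6.02% of all windows, and Oaz1 held 1 antioxidant response element core, against 10.2%. The GC box was in neither of these windows and in 32.7% of all windows. A second annotated start of Sms lies downstream, and its window held 4 GC boxes and none of the other motifs. Of genes that did not fall, the window of Ass1 also held 1 E-box and that of Smox 1 antioxidant response element core. These are matches of letters only.

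Sat1 (chromosome X, 155213132 to 155216449, minus strand), the first step of polyamine breakdown, varied more between libraries than between groups. It had 3821, 5201 and 9107 normalized counts in DMSO against 4348, 3898 and 7006 with SKI-II. The log2 fold change was -0.25 (95% interval -0.94 to 0.44, adjusted p = 0.564, edgeR), and it turned to 0.17 without DMSO replicate 3.

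To compare levels between genes, CPM (counts scaled to a fixed total per library) were divided by the length of the merged exons in kb. In DMSO the order by mean level per length was Oaz1 (188), Sat1 (136), Srm (113), Odc1 (77.4), Sms (24.97), Asl (9.63), Nos2 (0.857) and Ass1 (0.608 CPM per kb). The libraries of Oaz1 and Sat1 overlapped, as did those of Sat1 and Srm, and those of Nos2 and Ass1. In SKI-II the levels were 118 for Oaz1, 114 for Sat1, 94.6 for Srm and 82.0 for Odc1 CPM per kb, and each of these overlapped the next. Asl at 15.0 ± 1.83 then lay above Sms at 10.9 ± 2.93 CPM per kb (SD, n = 3), the reverse of the order in DMSO. The lowest Asl library, at 13.7, and the highest Sms library, at 13.5 CPM per kb, all but met. This order rests on the merged exon length, and other lengths were not tried. Nos2 at 1.65 and Ass1 at 0.980 CPM per kb overlapped. The polyamine genes were thus expressed far above Nos2 and Ass1 in both conditions.

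**Figure D2:**
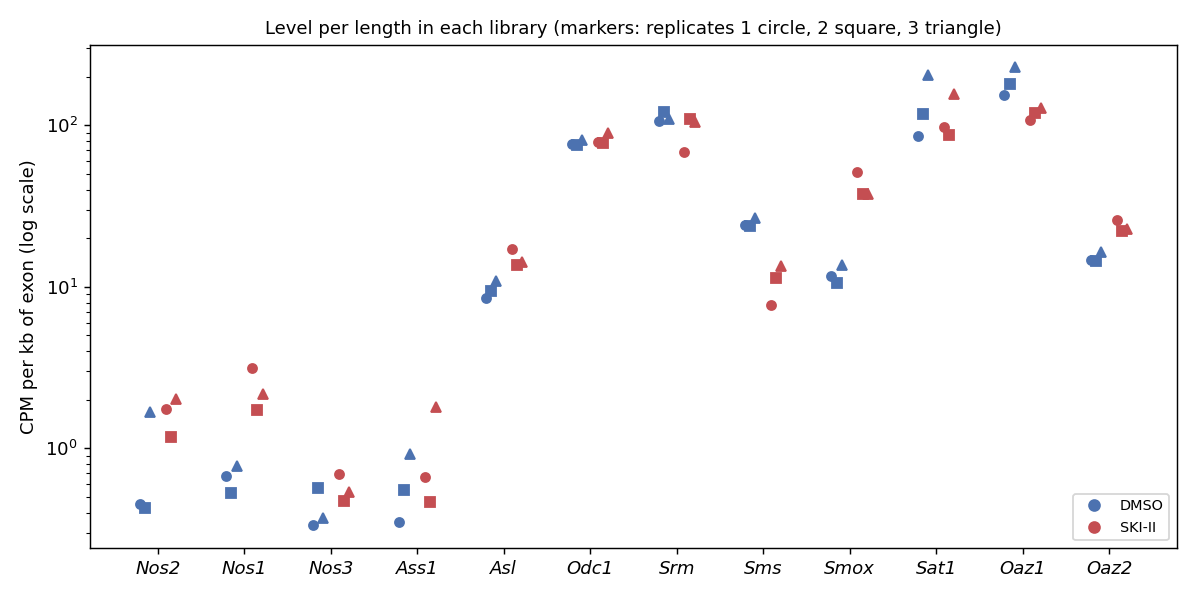
CPM per kb of exon (y axis, log scale) of the 8 genes and of Nos1, Nos3, Smox and Oaz2 in each DMSO and SKI-II library. The synthases and Ass1 lie lowest and Oaz1, Sat1, Srm and Odc1 highest, while Sms and Smox change places between the conditions.

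The remaining genes of the pathway were taken from 5 lists with 67 genes, of which 48 were tested. Of these, 10 were higher and 11 lower, which is 43.8% against the 38.0% of all tested genes. By list the share called ran from 33.3% to 50%, on 3 to 16 tested genes each. Over all tested genes 18.4% were higher and 19.7% lower. The median log2 fold change was -0.06.

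In the list of arginine transport, 2 of 5 tested genes were higher and 0 lower, and the median log2 fold change was 0.23. Slc7a1, the main cationic amino acid transporter, had 5446 ± 458 normalized counts in DMSO against 6392 ± 553 with SKI-II (SD, n = 3), a log2 fold change of 0.23 (adjusted p = 0.187, edgeR). Slc7a2, the transporter usually induced with Nos2, had no counts in any library. Slc7a7 rose from 304 ± 38.1 to 758 ± 63.4 normalized counts (SD, n = 3), a log2 fold change of 1.32 (adjusted p = 0.00014, edgeR). It encodes the light chain of a transporter that exchanges arginine for neutral amino acids, and its exons overlap those of Oxa1l on the other strand, which fell by 0.81 on the log2 scale. Slc3a2, the heavy chain that Slc7a7 and several other amino acid transporters share, had 5046, 6654 and 7367 normalized counts in DMSO against 29456, 12504 and 9545 with SKI-II. The log2 fold change was 1.43 (adjusted p = 0.0116, edgeR), and 0.79 without SKI-II replicate 1, with which the gene was still called.

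In the list of nitric oxide synthases, their cofactor and regulators, 4 of 14 tested genes were higher and 1 lower, with a median log2 fold change of 0.18. Nos1, the synthase known from neurons, had 120, 94.8 and 139 normalized counts in DMSO against 566, 309 and 386 with SKI-II. All SKI-II libraries were higher, and Nos1 rose 3.55-fold, a log2 fold change of 1.83 (95% interval 1.28 to 2.37, adjusted p = 0.000437, edgeR). Per length, Nos1 stood at 0.659 ± 0.123 CPM per kb in DMSO, within the range of Nos2 there, and at 2.35 ± 0.736 in SKI-II (SD, n = 3). Nos3, the endothelial synthase, was not called and lay between 22.3 and 45.9 normalized counts. Exons of Nos3 overlap those of Atg9b on the other strand, which had more counts and fell by 0.89 on the log2 scale.

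Among the genes of this list that act on tetrahydrobiopterin, the cofactor of nitric oxide synthases, Gch1, Pts and Spr were called higher, and Gchfr, Qdpr and Pcbd2 were not called, at log2 fold changes of -0.27, -0.15 and -0.07. Gch1, which encodes the first and rate-limiting enzyme of its synthesis, rose from 786 ± 119 to 1431 ± 78.4 normalized counts (SD, n = 3), a log2 fold change of 0.87 (adjusted p = 0.00114, edgeR). Pts, the next enzyme, had one of 0.63 (adjusted p = 0.0137, edgeR), and Spr, the last, one of 0.53 (adjusted p = 0.00535, edgeR). The call of Pts was lost without DMSO replicate 2 (adjusted p = 0.0711, edgeR) and without SKI-II replicate 2 (adjusted p = 0.0648, edgeR). Calm3, one of the calmodulin genes, had a log2 fold change of -0.66 (adjusted p = 0.00214, edgeR), while Ddah2, which removes an inhibitor of the synthases, had 17 counts or fewer in each library and was not called.

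In the list of the urea cycle, ornithine, proline and creatine, 1 of 10 tested genes was higher and 4 lower, with a median log2 fold change of -0.38. Otc and Cps1, which make the urea cycle of the liver, had at most 1 count in a library. Oat, which links ornithine to proline, fell from 2157 ± 111 to 1348 ± 177 normalized counts (SD, n = 3), a log2 fold change of -0.68 (adjusted p = 0.00263, edgeR). Pycr1, the last enzyme of proline synthesis in mitochondria, rose by 1.04 on the log2 scale (adjusted p = 0.000776, edgeR), and Aldh4a1, an enzyme of proline breakdown, fell by 1.49 (adjusted p = 0.000161, edgeR). Gatm, which joins arginine and glycine in the first step of creatine synthesis, fell from 1548 ± 40.3 to 454 ± 95.1 normalized counts (SD, n = 3), 3.40-fold lower (log2 fold change -1.77, adjusted p = 4.64e-05, edgeR). Gamt, the second step, fell by 0.73 on the log2 scale (adjusted p = 0.0178, edgeR), a call lost when the first or the second SKI-II library was left out (adjusted p = 0.0561 and 0.0609, edgeR).

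In the list of polyamine control, oxidation, transport and methionine salvage, 3 of 16 tested genes were higher and 5 lower, with a median log2 fold change of -0.15. Smox, spermine oxidase, which turns spermine back into spermidine with release of hydrogen peroxide, had 726, 662 and 852 normalized counts in DMSO against 3225, 2350 and 2338 with SKI-II. The groups were far apart, and Smox rose 3.53-fold, a log2 fold change of 1.82 (95% interval 1.46 to 2.18, adjusted p = 4.11e-05, edgeR). At the spermine step the synthase thus fell and the oxidase rose, from 24.97 ± 1.64 and 11.9 ± 1.55 CPM per kb for Sms and Smox in DMSO to 10.9 ± 2.93 and 42.2 ± 8.14 in SKI-II (SD, n = 3).

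The antizymes and their inhibitor did not move alike. Oaz2 rose from 727 ± 52.2 to 1137 ± 90.3 normalized counts (SD, n = 3), a log2 fold change of 0.65 (adjusted p = 0.00291, edgeR), against the fall of Oaz1. Per length, Oaz1 remained the more abundant, at 118 ± 10.3 against 23.7 ± 1.88 CPM per kb in SKI-II (SD, n = 3). Azin1, the inhibitor that releases ornithine decarboxylase from antizyme, had a log2 fold change of -0.40 (adjusted p = 0.0198, edgeR), a call lost when DMSO replicate 2 or either of the SKI-II libraries 2 and 3 was left out (adjusted p = 0.0693, 0.0799 and 0.0553, edgeR). Amd1, which supplies the aminopropyl groups for Srm and Sms, had 785 ± 125 and 819 ± 103 normalized counts (SD, n = 3) and was not called. The methionine salvage enzymes Enoph1 and Adi1 fell by 0.99 and 0.90 on the log2 scale, and Apip of the same route rose by 0.52 (adjusted p = 0.00101, 0.00307 and 0.0241, edgeR). On this route Mtap also fell, by 0.63 on the log2 scale (adjusted p = 0.00767, edgeR), and Mri1 was not called. The call of Apip was lost when any library but SKI-II replicate 3 was left out (adjusted p of 0.0520 to 0.0982, edgeR) and with no filter (adjusted p = 0.0556, edgeR). Atp13a3, a polyamine transporter, fell by 0.78 on the log2 scale (adjusted p = 0.00165, edgeR).

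Spermidine also serves to make hypusine, a residue found in the translation factor eIF5A. In that list 0 of 3 tested genes were higher and 1 lower. Eif5a fell from 24919 ± 2913 to 12270 ± 3424 normalized counts (SD, n = 3), a log2 fold change of -1.02 (95% interval -1.50 to -0.55, adjusted p = 0.00453, edgeR). Dhps and Dohh, which encode the hypusine-forming enzymes, were not called.

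**Figure D3:**
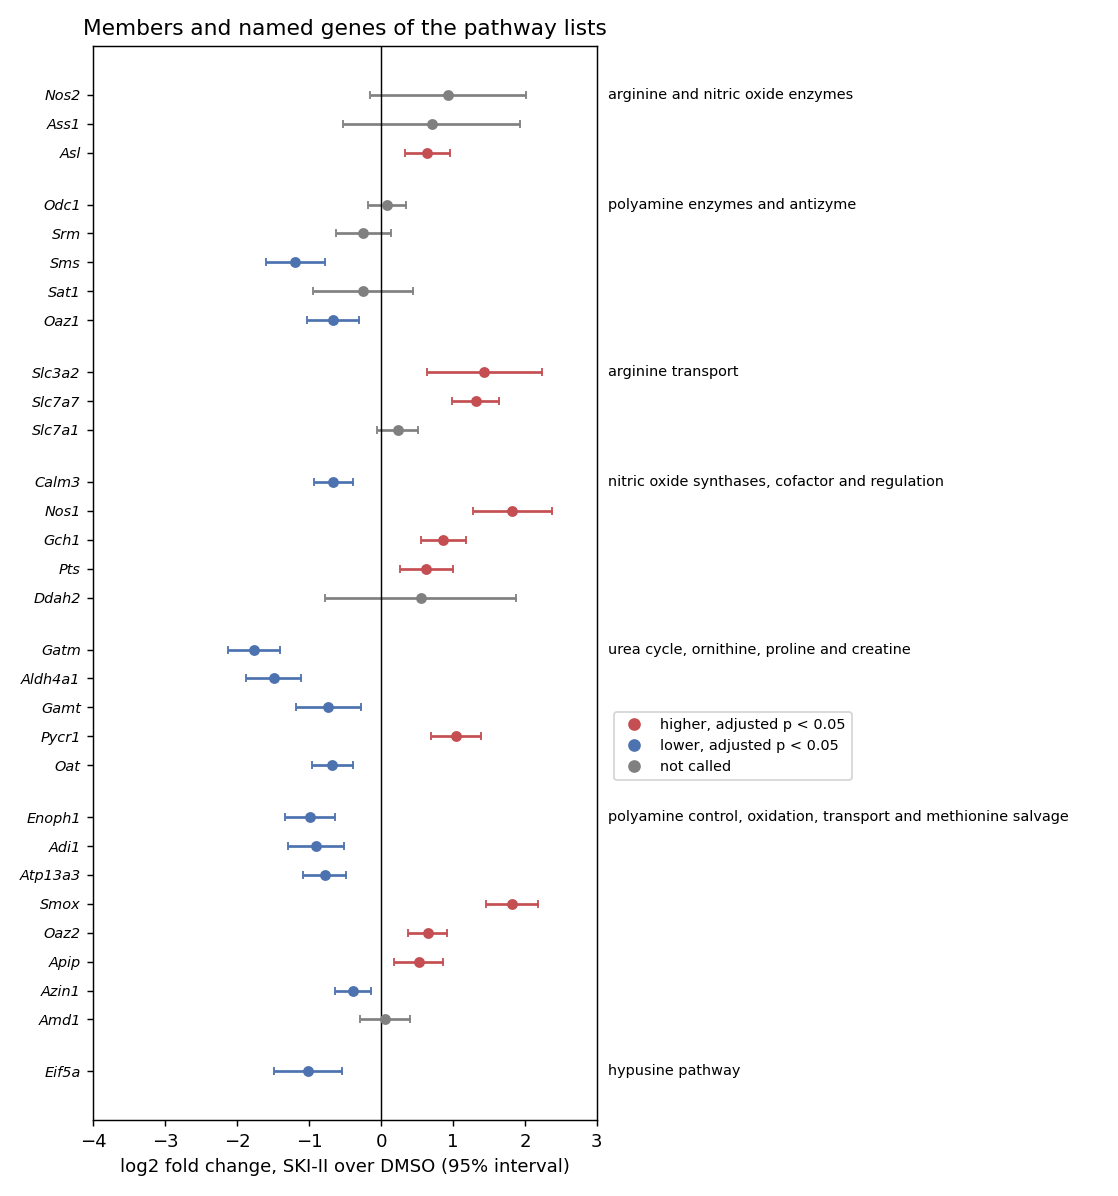
Log2 fold change of SKI-II over DMSO (x axis) with its 95% interval for the 8 genes and for the genes named from the 5 other lists. Red points are higher and blue points lower at an adjusted p below 0.05, and grey points were not called. Smox and Nos1 have the largest rises, at 1.82 and 1.83, and Gatm and Aldh4a1 the largest falls among the genes drawn, at -1.77 and -1.49.

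The fold changes were recomputed with other tools, scalings and filters and with libraries left out. For Asl, Sms and Oaz1 the call held in each of these, but Asl and Oaz1 did not pass where a log2 fold change beyond 1 in size was also required. Odc1, Srm, Ass1 and Sat1 were called in none of them.

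**Figure D4:**
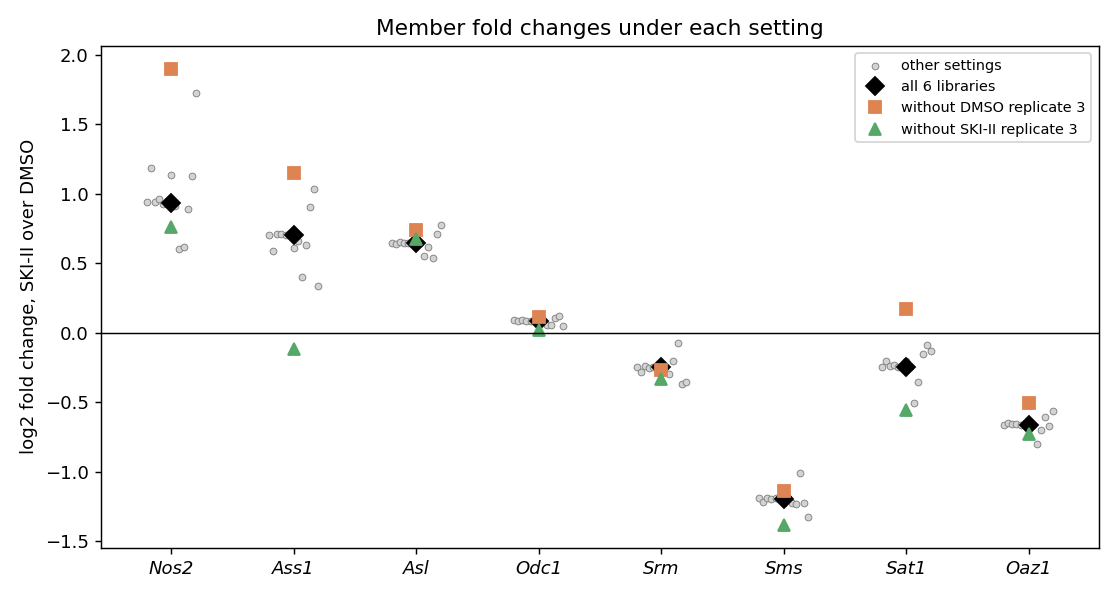
Log2 fold change of SKI-II over DMSO (y axis) of the 8 genes with all 6 libraries (black), without DMSO replicate 3 (orange), without SKI-II replicate 3 (green) and under the other settings (grey). Nos2 moves from 0.93 to 1.90 without DMSO replicate 3, Ass1 and Sat1 cross 0, and Asl, Sms and Oaz1 stay on their side.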

How the data were processed

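The authors selected poly(A) RNA, trimmed reads with Trimmomatic 0.36, mapped them with STAR 2.5.2b and deposited raw counts per Ensembl gene for each of 6 libraries. The submitters' processing notes also name featureCounts of Subread 1.5.2 and DESeq2. Which build, annotation and strand setting were used is not given in the sources. Symbols and positions are those of GENCODE M21 (GRCm38), with 48970 of 49315 identifiers matched.

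Counts were tested with edgeR 4.0.16 in R 4.3.3 (quasi-likelihood test, TMM scaling, genes filtered by filterByExpr at its settings of 10 counts and a total of 15). P-values were adjusted by Benjamini-Hochberg across 12274 genes, with calls made below 0.05. Normalized counts are on the scale of the mean TMM-scaled library, 16060516 counts. Standard errors and 95% intervals come from the fitted weights and moderated dispersions. Limits from a count of 0 (3 counts) cover counting error only. Libraries of a group differed beyond sampling noise (chi-square per degree of freedom 15.4 to 58.1). The programs were tested on simulated data.

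Members and lists were chosen with earlier results of these data known. The member list had 10 genes, of which 8 are described, and 4 listed genes are not reported here, nor counted in the lists. Named genes are the 8 members described, up to 3 called genes with the largest rise and fall in each list, and 9 close partners (Slc7a1, Slc7a2, Gch1, Ddah2, Oat, Azin1, Amd1, Smox and Eif5a). Spr, Gchfr, Qdpr, Pcbd2, Nos3, Mtap, Mri1, Dhps, Dohh, Otc and Cps1 were named after their values were seen. Alternatives were DESeq2 1.42.0, limma-voom (limma 3.58.1), RLE scaling, library size alone, no filter, at least 10 counts in every library, a replicate block, a prior count of 2, a log2 fold change beyond 1, and each library left out. Leaving out both libraries numbered 3 was added after seeing the data. Figures were drawn with matplotlib 3.10.9.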

Additional observations from a re-analysis of the deposited data

How the results depend on the processing

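With a log2 fold change beyond 1 in size also required, the genes called numbered 1929 in place of 4668, the members 1 in place of 3, and the lists of nitric oxide synthases, of the urea cycle and of polyamine control 1, 3 and 1 in place of 5, 5 and 8. With each library left out in turn the members called numbered 3 or 4 and the genes called 3273 to 4614. Nos2 was called higher with no filter (0.93, adjusted p = 0.00631, edgeR), without DMSO replicate 3 (1.90) and without both libraries numbered 3 (1.73, added after seeing the data). It was also called with the replicate block described below. Direction changed for Ass1 (-0.11 to 1.15 with a library left out, negative without SKI-II replicate 3), Sat1 (-0.55 to 0.17, positive without DMSO replicate 3) and Amd1 (-0.059 to 0.16, negative without DMSO replicate 2 and, at -0.013, without SKI-II replicate 2), and for Ddah2 (-0.018 without both libraries numbered 3), none of them called. The cause was not tested. Of 120 alternative values for the members, 114 kept direction and call. Those with a prior count of 2 keep the p-value of the main fit, so their calls could not differ. Scaling moved the median log2 fold change of all genes by less than 0.1. Nos2 and Ass1 had the fewest reads of the members.

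Same-numbered libraries did not all deviate together, with correlations of deviations from the group means of 0.26, -0.06 and 0.54 for numbers 1, 2 and 3 over 5981 genes, so the numbers were not taken to pair the samples. With the replicate block, 5584 genes and 4 members were called, the added member being Nos2 (log2 fold change 1.14, adjusted p = 0.0240, edgeR), and the urea cycle list had 8 called genes in place of 5. SKI-II libraries 1 and 2 both correlated best with DMSO replicate 1, and SKI-II replicate 3 with DMSO replicate 3.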

Other observations

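Mat2a, which encodes the enzyme that makes S-adenosylmethionine, the methyl and aminopropyl donor upstream of Amd1, was singled out after its values were seen. It had 793, 332 and 136 normalized counts in DMSO replicates 1, 2 and 3 and 1176, 2017 and 389 in SKI-II replicates 1, 2 and 3. The groups overlapped, and the fitted change was 2.83-fold higher (95% interval 0.12 to 2.88 on the log2 scale, adjusted p = 0.0867, edgeR), so the gene was not called. It was lowest in the library numbered 3 within both groups, where Nos2, Ass1, Odc1, Sms, Sat1 and Oaz1 were highest. Exons of the antisense gene Particl overlap those of Mat2a.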
